A study of Homo sapiens with 12 samples.

Results

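Transcripts of 3 FOXO transcription factors and 7 of their target genes were followed as a transcript-level readout of PI3K-AKT activity after IGF1. The factors were FOXO1, FOXO3 and FOXO4, and the targets were CCNG2, TXNIP, PIK3IP1, CITED2, BCL6, SESN1 and SESN3. These 10 genes were chosen with earlier results of these data known. They were taken by symbol, with no filter on their values, from the 21574 features of the deposited expression table. Of these features 13071 passed a filter on low values (at least 1 TPM in at least 3 libraries), among them 8 of the 10 genes. TPM, is an abundance per transcript length, scaled so that every library has the same total.

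FOXO factors are forkhead proteins that drive genes of cell cycle arrest, stress resistance, catabolism and cell death. When IGF1 binds its receptor, PI3K and AKT are activated, and AKT phosphorylates FOXO1, FOXO3 and FOXO4, which are then held in the cytoplasm by 14-3-3 proteins. FOXO target transcripts therefore usually fall when AKT is active, while the phosphorylation itself leaves no direct trace in RNA.

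The cells were MDA-231-LM2, a lung-metastatic derivative of MDA-MB-231, a human line of breast cancer cells. The groups were TMEM216+IGF1, TMEM216, Ctrl+IGF1 and Ctrl, with 3 libraries each and 12 in all. All are populations of this 1 line; Ctrl and TMEM216 name the cell population, and +IGF1 marks added IGF1. The labels give neither the manipulation of TMEM216 (which encodes a transmembrane protein at the base of the cilium), nor the dose or time of IGF1, nor the serum conditions. Nor do they state separate cultures for the replicates, so the p-values reflect only library-to-library spread, part or all of which may be technical.

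The TMEM216 transcript stood at 163 to 250 TPM in the 6 TMEM216 libraries and at 24.02 to 30.1 TPM in the 6 Ctrl libraries, so it was higher in the population that carries its name. Of 6 mesenchymal markers of the line, VIM was the highest, at 5750 to 7270 TPM, and FN1 the lowest, at 50.6 to 112 TPM. Of 6 breast markers listed as low in this line, 3 passed the filter. They were KRT18 at 829 to 1120 TPM, ERBB2 at 31.7 to 42.9 TPM and EPCAM at 11.9 to 15.7 TPM. The others, ESR1, PGR and CDH1, did not exceed 0.204 TPM. Markers of other cell types summed to 185 to 207 TPM in TMEM216+IGF1, 142 to 197 TPM in TMEM216, 170 to 214 TPM in Ctrl+IGF1 and 204 to 213 TPM in Ctrl. Nearly all of this was CD68, at 140 to 212 TPM, and 3 of 9 such markers passed the filter; CD3E, which defines T cells, was listed at 0 in all 12 libraries. One of these markers, the endothelial PECAM1, rose in TMEM216 cells averaged over IGF1, where 5.22% of all features were called. It stood at 1.502 ± 0.415 TPM in TMEM216 cells and 0.903 ± 0.168 TPM in Ctrl cells (SD, n = 6 each, limma, Benjamini-Hochberg adjusted p = 0.044). When 1 library was left out, this call held only if that library was TMEM216+IGF1 replicate 3. With IGF1 alone PECAM1 rose by 0.68 (limma adjusted p = 0.0324), where 1.61% of all features were called. It was at 1.83 TPM in TMEM216+IGF1 and 0.766 TPM in Ctrl+IGF1. This second call held only when the library left out was TMEM216 replicate 1 or 3 or Ctrl+IGF1 replicate 2. Its part in the results below was not tested. One library stood apart. In Ctrl+IGF1 replicate 3, ribosomal protein genes took 16.9% of TPM, against 12.4 to 14.5% in the other libraries, and the upper quartile of TPM was 55.7. TMEM216 replicate 1 had the next lowest upper quartile, at 59.5, against 60.7 to 63.8 in the remaining 10 libraries. Of the 10 FOXO genes, 9 had their lowest value of the group in Ctrl+IGF1 replicate 3, so the comparisons of the 10 genes are also given without both where that moved them most.

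The 10 transcripts spanned a wide range of levels, in TPM per library. CITED2, a transcriptional co-regulator that binds CBP and p300, was the most abundant with a mean of 53.2 TPM over the 12 libraries. TXNIP, an inhibitor of thioredoxin that also limits glucose uptake, followed at 28.7 TPM. BCL6, a transcriptional repressor, averaged 14.2 TPM, FOXO3 12.6 TPM and CCNG2, an unconventional cyclin linked to cell cycle arrest, 8.97 TPM. BCL6 and FOXO3 overlapped in range over the libraries, as did FOXO3 and CCNG2. SESN1, a sestrin that restrains mTORC1, averaged 2.83 TPM, FOXO4 1.85 TPM and FOXO1 1.70 TPM, with overlapping ranges between neighbours. FOXO3 was thus the leading FOXO transcript of these cells, and FOXO1 and FOXO4 were both below the 10th percentile of tested features (percentiles 7.94 and 8.85). PIK3IP1, a membrane inhibitor of PI3K, averaged 0.411 TPM and SESN3, another sestrin, 0.181 TPM. Neither reached 1 TPM in any library, and their ranges overlapped. A near-identical copy of FOXO3, FOXO3B, was listed at 1.40 to 2.89 TPM, and reads may have been split between both genes. Summing both changed no call and no direction for FOXO3.

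**Figure D1:**
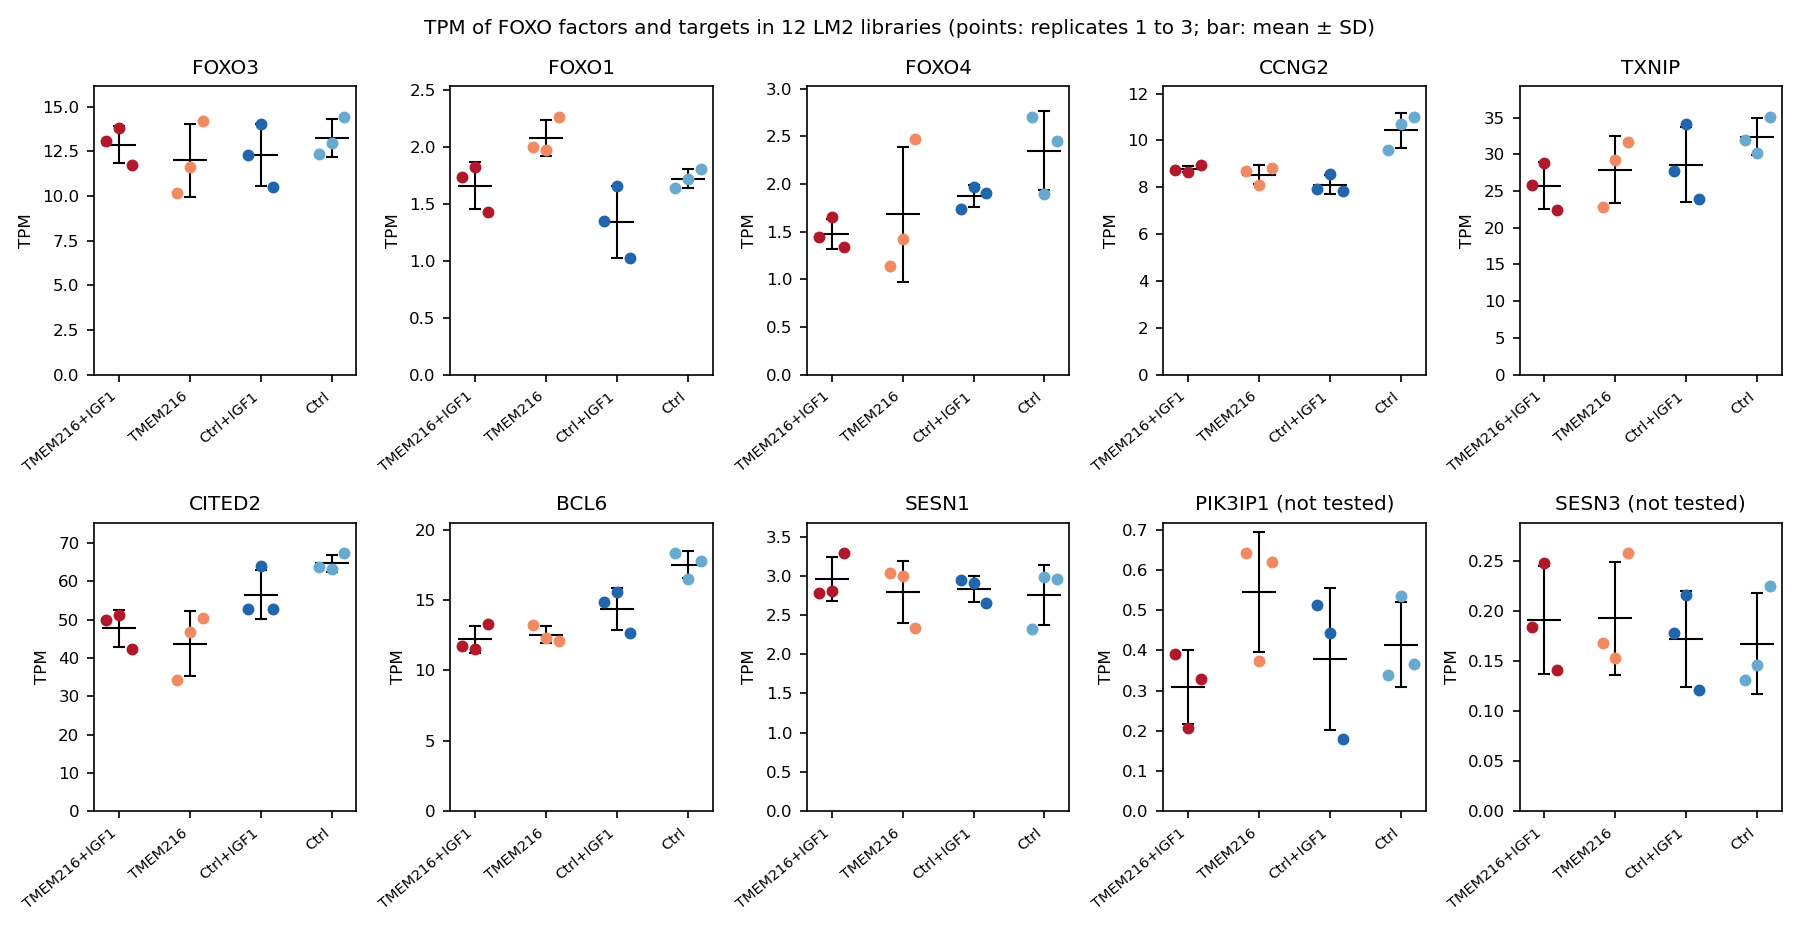
TPM (vertical axes, from 0) of the 10 FOXO factors and targets by group; points are the 3 libraries of a group, the wide bar is the mean and the thin bar the SD. CITED2 and BCL6 stand lower in the TMEM216 groups, where CITED2 spans 34.1 to 51.3 TPM against 52.8 to 67.3 TPM in the Ctrl groups; FOXO3, TXNIP and SESN1 overlap between groups.

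Promoters were read for all 10 genes to show what the targets carry near their starts. RefSeq windows on GRCh38.p14, from 250 bases before to 50 after a start, gave 20 windows for the 10 genes. The forkhead motif GTAAACA (or TGTTTAC on the other strand) was present in 3 of the 20, those of TXNIP, FOXO4 and PIK3IP1, and in 3.42% of all 35116 windows. The E-box CACGTG, the motif class bound by MondoA and MLX as well as other factors, was present in 2 of the 20, those of CCNG2 and CITED2, and in 7.26% of all. A match is only a run of letters, not a bound site. Only these exact letters were searched, so an unmarked window, such as that of TXNIP for CACGTG, does not show that a site for MondoA and MLX is absent. The 250 bases upstream of the start are shown for TXNIP (chr1:145996580-145996829, minus strand), which holds the forkhead letters, for CCNG2 (chr4:77156957-77157206, plus strand), which had the largest fitted IGF1 difference in Ctrl cells, and for CITED2 (chr6:139374649-139374898, minus strand) and BCL6 (chr3:187745469-187745718, minus strand), the only members called in any comparison. Where a gene has several starts the most upstream is shown; the bases after the CITED2 start were not found in any GENCODE 29 transcript of the gene. They run 5′ to 3′ on the gene's strand, and capitals mark GTAAACA or CACGTG; BCL6 holds neither.
TXNIP: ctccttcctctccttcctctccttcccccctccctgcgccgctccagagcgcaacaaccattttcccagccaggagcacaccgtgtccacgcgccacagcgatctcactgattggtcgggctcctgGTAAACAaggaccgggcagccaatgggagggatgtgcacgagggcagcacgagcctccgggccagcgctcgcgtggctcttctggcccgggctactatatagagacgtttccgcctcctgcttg
CCNG2: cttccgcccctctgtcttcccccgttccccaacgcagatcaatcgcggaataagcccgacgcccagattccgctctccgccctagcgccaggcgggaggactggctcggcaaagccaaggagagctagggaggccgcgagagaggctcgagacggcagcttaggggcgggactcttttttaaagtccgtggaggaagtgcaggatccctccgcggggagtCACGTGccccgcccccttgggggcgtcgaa
CITED2: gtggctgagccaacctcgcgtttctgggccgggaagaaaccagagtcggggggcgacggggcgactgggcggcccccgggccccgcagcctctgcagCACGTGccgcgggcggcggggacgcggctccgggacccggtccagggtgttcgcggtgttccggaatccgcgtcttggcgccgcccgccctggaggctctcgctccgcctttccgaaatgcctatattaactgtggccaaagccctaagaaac
BCL6: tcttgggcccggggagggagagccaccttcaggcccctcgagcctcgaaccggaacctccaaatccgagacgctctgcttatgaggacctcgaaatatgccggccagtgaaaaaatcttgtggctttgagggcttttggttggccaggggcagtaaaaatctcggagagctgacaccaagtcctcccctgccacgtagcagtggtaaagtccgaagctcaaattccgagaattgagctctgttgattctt

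The first question was whether the FOXO readout moved with IGF1. No member passed the test with IGF1 in either population, and most fitted differences in Ctrl cells were small and negative. In TMEM216 cells 4 of 8 tested members were fitted below 0, with a median log2 difference of -0.00 against 0.02 over all features. In Ctrl cells 7 of 8 were below 0, with a median of -0.21, but the median of all features was itself -0.09. Without Ctrl+IGF1 replicate 3 and TMEM216 replicate 1, the members' medians were -0.01 in TMEM216 cells (6 of 8 below 0) and -0.14 in Ctrl cells (7 of 8 below 0), against -0.00 and -0.02 over all features. By limma with Benjamini-Hochberg adjustment over 13071 features, the members called were 0 of 8 in TMEM216 cells, where 0.0153% of features were called, and 0 of 8 in Ctrl cells, where 0.0306% were called. Averaged over both populations they were also 0 of 8, with 0.0536% of features called. An unadjusted p under 0.05 was reached by 0 members in TMEM216 cells, by 2 in Ctrl cells (CCNG2 and BCL6) and by 3 on average (FOXO1, CCNG2 and BCL6); over all features the shares were 4.77%, 6.89% and 5.88%. Few features passed anywhere with IGF1 (2 in TMEM216 cells, 4 in Ctrl cells and 7 on average), and all of them were lower with IGF1. Among them, chosen after their values were seen, FOS, an immediate-early transcription factor gene, averaged 11.0 TPM in TMEM216+IGF1 and 64.3 TPM in TMEM216 (log2 difference -2.43, limma adjusted p = 5.24e-07). FOS was not among the 4 features called in Ctrl cells. Its IGF1 difference in TMEM216 cells minus that in Ctrl cells was -1.79 (limma adjusted p = 0.000965).

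Among the factors, FOXO3 had 13.1, 13.8 and 11.7 TPM in TMEM216+IGF1 (replicates 1, 2 and 3) and 10.2, 11.6 and 14.2 TPM in TMEM216. In Ctrl+IGF1 it had 12.3, 14.01 and 10.5 TPM, against 12.3, 13.0 and 14.4 TPM in Ctrl. The IGF1 groups overlapped in both populations, and the log2 differences were 0.10 (95% interval -0.19 to 0.39) in TMEM216 cells and -0.11 (-0.40 to 0.18) in Ctrl cells; quantile normalization turned the sign in Ctrl cells, to 0.01. Without the 2 libraries named above both estimates of FOXO3 were close to 0, at -0.00 and -0.01. FOXO1 had 1.74, 1.82 and 1.43 TPM in TMEM216+IGF1, against 2.00, 1.98 and 2.26 TPM in TMEM216. It had 1.35, 1.65 and 1.02 TPM in Ctrl+IGF1 and 1.64, 1.72 and 1.81 TPM in Ctrl. All 3 TMEM216 libraries with IGF1 lay below the 3 without it, while in Ctrl cells 1 library with IGF1 reached the range of those without. Log2 differences of FOXO1 were -0.21 (SE 0.14, limma adjusted p = 1) in TMEM216 cells and -0.22 (SE 0.14, adjusted p = 0.673) in Ctrl cells, and -0.23 and -0.12 without the 2 libraries. FOXO4 had 1.44, 1.66 and 1.34 TPM in TMEM216+IGF1, against 1.14, 1.43 and 2.48 TPM in TMEM216. In Ctrl+IGF1 it had 1.74, 1.97 and 1.91 TPM, against 2.71, 1.90 and 2.45 TPM in Ctrl. FOXO4 overlapped between IGF1 conditions in both populations, with intervals of -0.48 to 0.31 in TMEM216 cells and -0.61 to 0.18 in Ctrl cells around estimates of -0.08 and -0.21, which became -0.23 and -0.22 without the 2 libraries.

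Of the targets among the members, CCNG2 had the smallest unadjusted p with IGF1, in Ctrl cells. It had 8.75, 8.65 and 8.93 TPM in TMEM216+IGF1 and 8.69, 8.11 and 8.84 TPM in TMEM216, with overlap. In Ctrl+IGF1 it had 7.94, 8.57 and 7.85 TPM, against 9.59, 10.7 and 11.0 TPM in Ctrl, with no overlap. The Ctrl difference was -0.33 on the log2 scale (95% interval -0.52 to -0.13), with an unadjusted p of 0.00357 from limma that did not survive adjustment over all features (adjusted p = 0.673). Without Ctrl+IGF1 replicate 3 and TMEM216 replicate 1 it was -0.30 (limma adjusted p = 0.841). In TMEM216 cells the difference was 0.04 (-0.16 to 0.23). BCL6 also separated in Ctrl cells, with 14.8, 15.6 and 12.7 TPM in Ctrl+IGF1 against 18.3, 16.5 and 17.7 TPM in Ctrl, again with no overlap. The BCL6 difference there was -0.27 (-0.49 to -0.06; limma unadjusted p = 0.0168, adjusted p = 0.673), and -0.19 without the 2 libraries. In TMEM216 cells BCL6 overlapped, with 11.7, 11.5 and 13.3 TPM in TMEM216+IGF1 and 13.2, 12.3 and 12.1 TPM in TMEM216, a log2 difference of -0.04 (-0.25 to 0.18).

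Separation of this kind was also common among all features. In TMEM216 cells 1 of 8 members, FOXO1, did not overlap between IGF1 conditions, where 10.2% of all features did not. In Ctrl cells it was 2 of 8, CCNG2 and BCL6, where 14.6% of all features did not overlap. With all 6 libraries with IGF1 against the 6 without, it was 0 of 8, where 0.207% did not.

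The remaining targets overlapped between IGF1 conditions in both populations. TXNIP had 25.8, 28.9 and 22.4 TPM in TMEM216+IGF1 and 22.8, 29.3 and 31.7 TPM in TMEM216. It had 27.8, 34.1 and 23.96 TPM in Ctrl+IGF1 and 31.9, 30.1 and 35.1 TPM in Ctrl. Its log2 differences with IGF1 were -0.11 (95% interval -0.43 to 0.21) in TMEM216 cells and -0.18 (-0.51 to 0.14) in Ctrl cells; without the 2 libraries named above these were -0.24 and -0.07. CITED2 had 49.8, 51.3 and 42.3 TPM in TMEM216+IGF1 and 34.1, 46.8 and 50.3 TPM in TMEM216. In Ctrl+IGF1 it had 52.9, 64.0 and 52.8 TPM, against 63.8, 63.3 and 67.3 TPM in Ctrl. Its fitted signs differed between populations, at 0.14 (-0.15 to 0.43) in TMEM216 cells and -0.20 (-0.49 to 0.10) in Ctrl cells, and the estimate in TMEM216 cells was -0.03 without the 2 libraries. SESN1 had the smallest coefficient of variation of the 10 genes, 9.97% over the 12 libraries. It had 2.78, 2.81 and 3.28 TPM in TMEM216+IGF1 and 3.03, 3.00 and 2.34 TPM in TMEM216. In Ctrl+IGF1 it had 2.94, 2.91 and 2.65 TPM, against 2.32, 2.98 and 2.96 TPM in Ctrl, and its differences with IGF1 were 0.07 (-0.22 to 0.35) in TMEM216 cells and 0.03 (-0.25 to 0.32) in Ctrl cells, or 0.11 and 0.07 without the 2 libraries.

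The targets under the filter were PIK3IP1 and SESN3. PIK3IP1 had 0.390, 0.208 and 0.328 TPM in TMEM216+IGF1 and 0.641, 0.374 and 0.620 TPM in TMEM216. It had 0.512, 0.443 and 0.180 TPM in Ctrl+IGF1 and 0.339, 0.535 and 0.367 TPM in Ctrl. Its groups overlapped in each comparison, narrowly so between TMEM216+IGF1 and TMEM216. SESN3 had 0.184, 0.248 and 0.141 TPM in TMEM216+IGF1 and 0.168, 0.153 and 0.257 TPM in TMEM216. In Ctrl+IGF1 it had 0.178, 0.216 and 0.121 TPM, against 0.131, 0.146 and 0.225 TPM in Ctrl, so all groups overlapped. In a limma fit without the filter, over 17908 features, neither passed in any of 7 comparisons; the log2 difference of PIK3IP1 with IGF1 was -0.24 (SE 0.107, adjusted p = 0.997) in TMEM216 cells and -0.04 (SE 0.107, adjusted p = 0.92) in Ctrl cells.

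**Figure D2:**
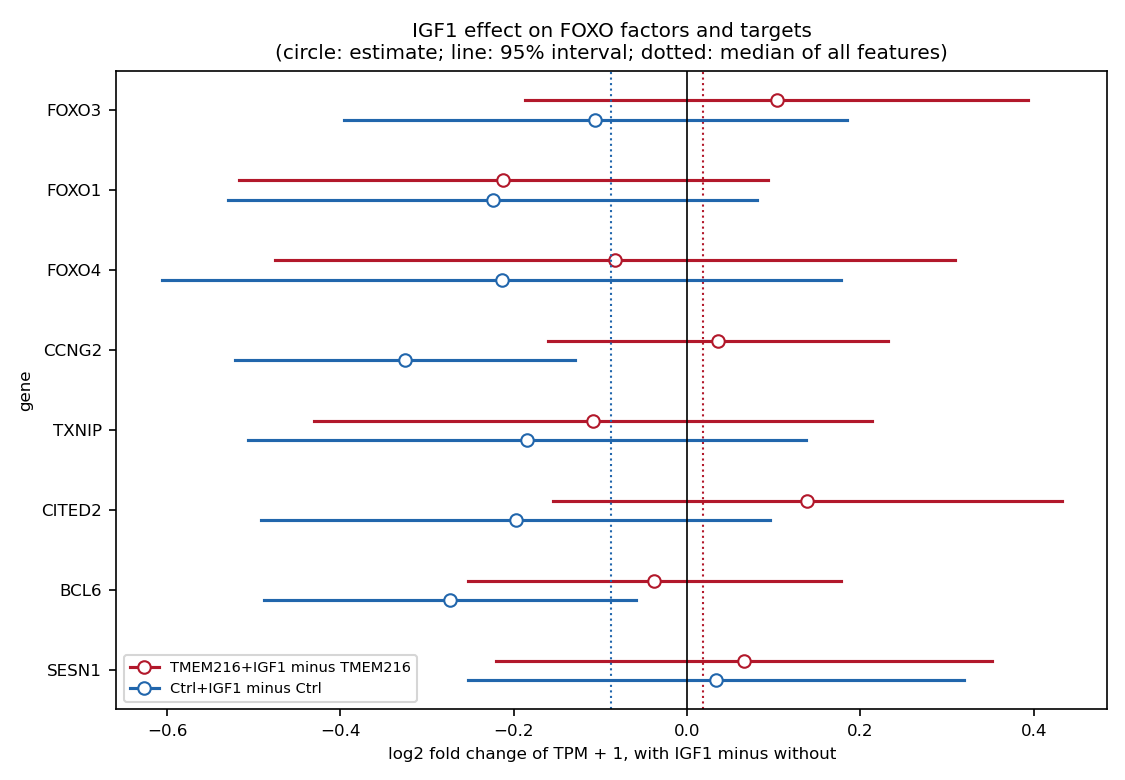
Log2 difference of TPM + 1 with IGF1 minus without (horizontal axis) for the 8 tested genes; circles are estimates and lines 95% intervals, with TMEM216 cells above Ctrl cells in each pair. Dotted lines are the medians of all features, 0.02 in TMEM216 cells and -0.09 in Ctrl cells; in Ctrl cells the intervals of CCNG2 and BCL6 lie below 0, and no gene passed after adjustment. Quantile normalization turned the sign of FOXO3 in Ctrl cells.

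The second question was whether the readout differed with the cell population. CITED2 and BCL6 fell in TMEM216 cells averaged over both IGF1 conditions, and the other 6 tested members did not pass. CITED2 averaged 45.8 ± 6.58 TPM in TMEM216 cells and 60.7 ± 6.24 TPM in Ctrl cells (SD, n = 6 each), and the 6 TMEM216 libraries all lay below the 6 Ctrl libraries. Its log2 difference was -0.41 (SE 0.0953, 95% interval -0.61 to -0.20; limma with Benjamini-Hochberg adjustment, adjusted p = 0.0299). BCL6 averaged 12.4 ± 0.749 TPM in TMEM216 cells and 15.9 ± 2.06 TPM in Ctrl cells, and all libraries but Ctrl+IGF1 replicate 3 were separated. Its log2 difference was -0.33 (SE 0.0697, interval -0.49 to -0.18; limma adjusted p = 0.0164). These 2 of 8 members compare with 5.22% of all features called in this comparison and 3.21% called lower in TMEM216 cells. CITED2 was the 1 member of 8 whose libraries did not overlap, where 4.39% of all features did not. In bulk RNA, fewer cells that express a gene and less RNA per cell cannot be told apart.

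Both calls were near the threshold. For CITED2 the call was lost without TMEM216+IGF1 replicate 1 or 3, without Ctrl+IGF1 replicate 1, and without Ctrl replicate 1, 2 or 3, with limma adjusted p up to 0.0761 and log2 differences of -0.43 to -0.36 in those fits. For BCL6 it was lost without TMEM216+IGF1 replicate 1, without Ctrl+IGF1 replicate 1, and without Ctrl replicate 1, with adjusted p of 0.0501 to 0.0532 and differences of about -0.32. Leaving out both Ctrl+IGF1 replicate 3 and TMEM216 replicate 1 kept both calls, with CITED2 at -0.35 (limma adjusted p = 0.0196) and BCL6 at -0.39 (adjusted p = 0.00548).

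Within single IGF1 conditions no member passed. With IGF1 the members called were 0 of 8, where limma called 1.61% of features, and without IGF1 they were 0 of 8, where it called 1.09%. An unadjusted p under 0.05 was reached by BCL6 with IGF1, where 15.8% of all features reached it, and by CITED2, BCL6 and CCNG2 without IGF1, where 13.2% did. With IGF1 the log2 differences were -0.24 (95% interval -0.53 to 0.06) for CITED2, -0.22 (-0.43 to -0.00) for BCL6 and 0.10 (-0.09 to 0.30) for CCNG2. Without IGF1, CITED2 differed by -0.57 (-0.87 to -0.28; limma adjusted p = 0.0699), BCL6 by -0.45 (-0.67 to -0.24; adjusted p = 0.0529) and CCNG2 by -0.26 (-0.46 to -0.06; adjusted p = 0.223). Without IGF1, BCL6 passed under some alternatives, such as without the 2 libraries (-0.49, limma adjusted p = 0.0269) or without Ctrl+IGF1 replicate 3 alone (-0.45, adjusted p = 0.0232), and CITED2 passed without TMEM216 replicate 3 (-0.68, adjusted p = 0.0444). With IGF1, 3 of 8 members did not overlap between populations (CCNG2 higher and FOXO4 and CITED2 lower in TMEM216+IGF1), where 19.7% of all features did not. Without IGF1 it was 4 of 8 (FOXO1 higher and CCNG2, CITED2 and BCL6 lower in TMEM216), where 21.8% did not.

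The factors themselves did not pass between populations. Averaged over IGF1, FOXO4 differed by -0.28 (95% interval -0.56 to -0.00; limma unadjusted p = 0.048, adjusted p = 0.244), at 1.58 ± 0.470 TPM in TMEM216 cells and 2.11 ± 0.377 TPM in Ctrl cells (SD, n = 6 each). FOXO1 was at 0.18 (-0.03 to 0.40), and FOXO3 was at -0.04 (-0.24 to 0.17). In this comparison an unadjusted p under 0.05 was reached by 3 of 8 members and by 20.1% of all features. Among the other targets, TXNIP was at -0.18 (-0.41 to 0.05), CCNG2 at -0.08 (-0.22 to 0.06) and SESN1 at 0.03 (-0.17 to 0.23). The 8 members had a median of -0.13, against -0.00 over all features.

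**Figure D3:**
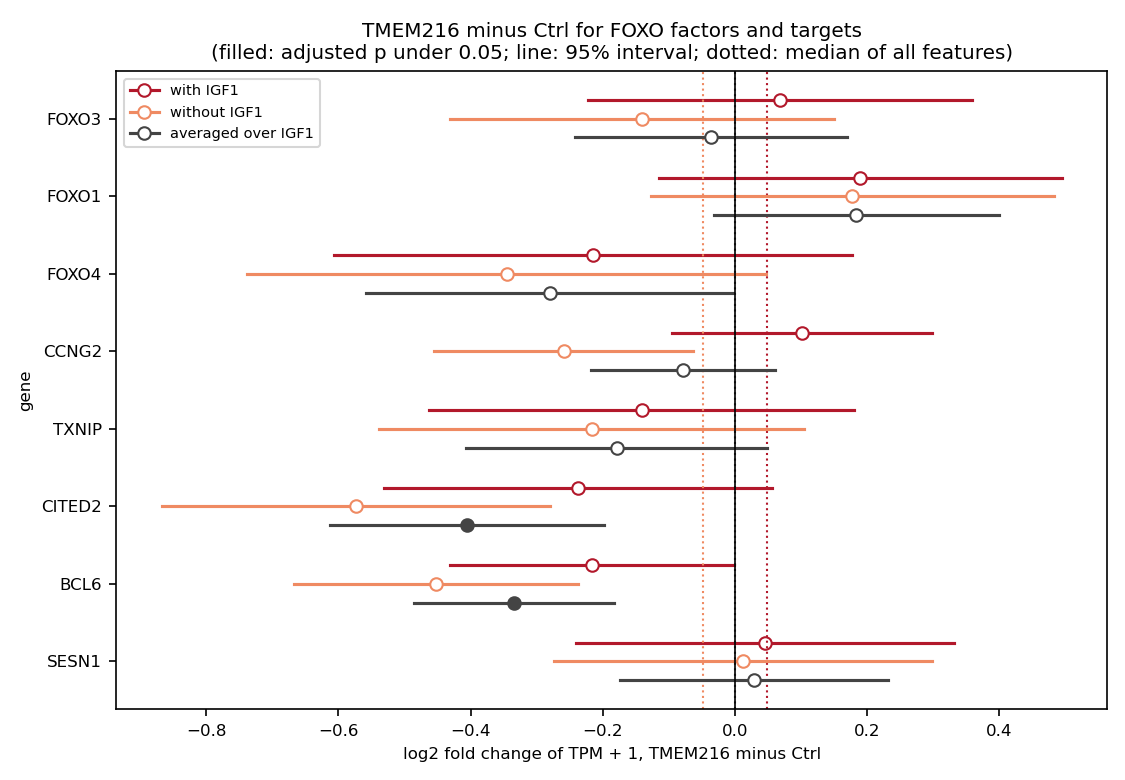
Log2 difference of TPM + 1, TMEM216 minus Ctrl (horizontal axis), for the 8 tested genes with IGF1, without it and averaged over IGF1. Circles are estimates, lines 95% intervals and dotted lines the medians of all features. Circles are filled at an adjusted p under 0.05, which only CITED2 and BCL6 averaged over IGF1 reached. CITED2 and BCL6 lie below 0 in both conditions, at -0.24 and -0.22 with IGF1 and -0.57 and -0.45 without, and the sign of CCNG2 differs between conditions, at 0.10 and -0.26. The sign of FOXO3 with IGF1 turned when Ctrl+IGF1 replicate 3 and TMEM216 replicate 1 were left out.

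The difference between the IGF1 effects in both populations was tested as an interaction. No member passed (0 of 8, where limma called 0.0153% of features). Of the 8 only CCNG2 had an unadjusted p under 0.05, as had 5.38% of all features. The CCNG2 interaction was 0.36 on the log2 scale (95% interval 0.08 to 0.64; limma adjusted p = 0.754), from IGF1 differences of 0.04 in TMEM216 cells and -0.33 in Ctrl cells. CITED2 was at 0.34 (-0.08 to 0.75) and BCL6 at 0.24 (-0.07 to 0.54); without the 2 libraries named above they were at 0.13 and 0.19, and CCNG2 at 0.35. All 8 members were fitted above 0 with a median of 0.17, but the median of all features was also above 0, at 0.11, so the members' median lay 0.06 above it. Without Ctrl+IGF1 replicate 3 and TMEM216 replicate 1, FOXO1, FOXO4 and TXNIP were below 0, and the medians were 0.03 for the members and 0.02 for all features. Under quantile normalization or median-of-ratios scaling, which took that median to 0.01, FOXO1, TXNIP and SESN1 were below 0.

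The genes around the FOXO factors were taken as lists, chosen with earlier results of these data known. Upstream, 28 of 30 genes of PI3K-AKT signalling were tested, IGF1R and the IRS adaptors among them. By limma 0 of the 28 rose and 0 fell in any of the 7 comparisons, where 0.0153% to 5.22% of all features were called. In Ctrl cells with IGF1, 25 of these 28 were fitted below 0, with a median of -0.19 against -0.09 over all features, and 6 had an unadjusted p under 0.05, as had 6.89% of all features. Without Ctrl+IGF1 replicate 3 and TMEM216 replicate 1, 22 of the 28 were below 0, with a median of -0.09 against -0.02. In that fit 1 gene of the 28, the kinase AKT1, fell in TMEM216 cells averaged over IGF1, by 0.15 (limma adjusted p = 0.0247). There 1061 of all 13071 features were called, 375 of them higher. IGF1R, the receptor, was at 7.84 ± 1.499 TPM in Ctrl+IGF1 and 10.6 ± 0.567 TPM in Ctrl (SD, n = 3 each; limma adjusted p = 0.673), a log2 difference of -0.41 that was -0.27 without the 2 libraries. Among 20 tested regulators of FOXO proteins, 1 rose and 1 fell in TMEM216 cells averaged over IGF1, where 5.22% of all features were called. SKP2, a ubiquitin ligase subunit that targets FOXO1, rose by 0.40 (SE 0.0773, limma adjusted p = 0.0114). SIRT2, a deacetylase that acts on FOXO proteins, fell by 0.27 there (adjusted p = 0.00951). SIRT2 overlaps NFKBIB on the opposite strand, and no source used here says whether strand was kept.

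Among 40 other FOXO targets that were tested, 6 fell and 0 rose in TMEM216 cells averaged over IGF1 (limma). Over all features 5.22% were called and 3.21% were called lower. The list was chosen with earlier results of these data known, so the count is a description and not independent support. Without Ctrl+IGF1 replicate 3 and TMEM216 replicate 1, 9 fell and 1 rose. In that fit 1061 of all 13071 features were called, 375 of them higher. In the IGF1 comparisons 0 of the 40 passed, where 0.0153% to 0.0536% of all features were called. An unadjusted p under 0.05 was found for 4 in TMEM216 cells and 3 in Ctrl cells, and for 4.77% and 6.89% of all features. In TMEM216 cells CDKN1A, TNFSF10 and DEPP1 were fitted higher with IGF1 and KLF15 lower. In Ctrl cells IGFBP1, CDKN1B and PINK1 were fitted lower. IGFBP1 differed there by -0.46 (limma unadjusted p = 0.00125, adjusted p = 0.564), without overlap, as for 14.6% of all features. The median of the 40 targets with TMEM216 averaged over IGF1 was -0.11 against -0.00 over all features. SESN2, the stress-induced sestrin, had 8.15, 8.05 and 7.35 TPM in TMEM216+IGF1 and 6.27, 7.57 and 8.64 TPM in TMEM216. It had 16.9, 16.8 and 16.3 TPM in Ctrl+IGF1 and 15.3, 15.0 and 17.7 TPM in Ctrl. Every TMEM216 library was thus below every Ctrl library, and SESN2 fell by 1.001 on the log2 scale (SE 0.0795; limma adjusted p = 2.03e-05), while its relatives SESN1 and SESN3 overlapped. TSC22D3, a glucocorticoid-induced leucine zipper protein, averaged 8.38 ± 0.578 TPM in TMEM216 cells and 14.6 ± 0.792 TPM in Ctrl cells (SD, n = 6 each), a fall of 0.73 (SE 0.0627; limma adjusted p = 3.7e-05). BBC3, the pro-apoptotic BH3 protein PUMA, fell by 0.65 and GADD45A, a growth arrest and DNA damage gene, by 0.45 (limma adjusted p = 0.00483 and 0.00431). PINK1, a mitochondrial quality control kinase, fell by 0.42, and MAP1LC3B, an autophagosome protein whose gene overlaps FBXO31 on the opposite strand, by 0.32 (limma adjusted p = 0.00323 and 0.00428). In each of these 6 genes the 6 TMEM216 libraries lay below the 6 Ctrl libraries, and each averaged call held whichever 1 library was left out. SESN2, BBC3 and GADD45A are also known targets of p53.

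Within single IGF1 conditions fewer of these targets passed. With IGF1, 3 of 40 fell (SESN2, TSC22D3 and GADD45A), where 1.61% of all features were called, and without IGF1, 4 of 40 fell (SESN2, TSC22D3, PINK1 and BBC3), where 1.09% were called. Without the 2 libraries that stood apart, 4 of the 40 fell with IGF1 and 6 fell without it. In those fits 238 and 288 of all 13071 features were called, 118 and 53 of them higher. The SESN2 difference was -0.998 with IGF1 and -1.005 without it. The GADD45A call with IGF1 was lost without replicate 2 or 3 of TMEM216+IGF1 or replicate 1 or 3 of Ctrl+IGF1 (limma adjusted p up to 0.103). Without IGF1, the call of PINK1 was lost without Ctrl replicate 2 or 3 (limma adjusted p up to 0.0698), and that of BBC3 without replicate 2 or 3 of TMEM216 or replicate 1 or 3 of Ctrl (up to 0.14). With only the 6 libraries compared, the calls of PINK1 (limma adjusted p = 0.0933) and BBC3 (0.0833) were lost. So were those of GADD45A (0.0516) and TSC22D3 (0.05) with IGF1. The BBC3 call was also lost without the filter, under quantile normalization and under median-of-ratios scaling (0.051 to 0.0686).

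Of the axes that also control some members, 7 genes of MondoA and MLX, which drive TXNIP, were tested. By limma 0 of the 7 passed in any comparison, where 0.0153% to 5.22% of all features were called. With TMEM216 averaged over IGF1, 2 of the 7 had an unadjusted p under 0.05, as had 20.1% of all features. Of 19 tested genes of sestrin and mTORC1 control, 1 was called in TMEM216 cells averaged over IGF1, where 5.22% of all features were called. It was DDIT4, an inhibitor of mTORC1, which fell by 0.36 (SE 0.0545, limma adjusted p = 0.00297). It was at 152 ± 21.9 TPM in TMEM216 cells and 194 ± 24.1 TPM in Ctrl cells (SD, n = 6 each). It had 175.5, 160 and 174 TPM in TMEM216+IGF1 and 137, 142 and 121 TPM in TMEM216, against 222, 219 and 205 TPM in Ctrl+IGF1 and 183, 173 and 165 TPM in Ctrl. DDIT4 libraries overlapped between populations over both IGF1 conditions, but not within either. Without IGF1 alone, both DDIT4 (limma adjusted p = 0.0403) and SIRT2 (0.0289) also fell, where 1.09% of all features were called. The DDIT4 call was lost without any 1 library other than Ctrl+IGF1 replicate 2 or 3. That of SIRT2 was lost without replicate 1 of TMEM216+IGF1 or Ctrl+IGF1, replicate 1 or 2 of TMEM216, or any replicate of Ctrl. Both calls were also lost under median-of-ratios scaling, with only the 6 libraries compared, and with replicate number as a block (limma adjusted p of 0.0635 to 0.131). The DDIT4 call was lost without the mean-variance trend (0.0662), and the SIRT2 call under quantile normalization (0.0505). Of 18 tested proliferation genes, 1 was called in TMEM216 cells averaged over IGF1, where 5.22% of all features were called. It was MCM5, a replication licensing factor, which rose by 0.24 (limma adjusted p = 0.0328). That call was lost without replicate 1 or 3 of TMEM216+IGF1, replicate 2 of TMEM216, replicate 1 of Ctrl+IGF1, or any replicate of Ctrl (limma adjusted p up to 0.0926).

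**Figure D4:**
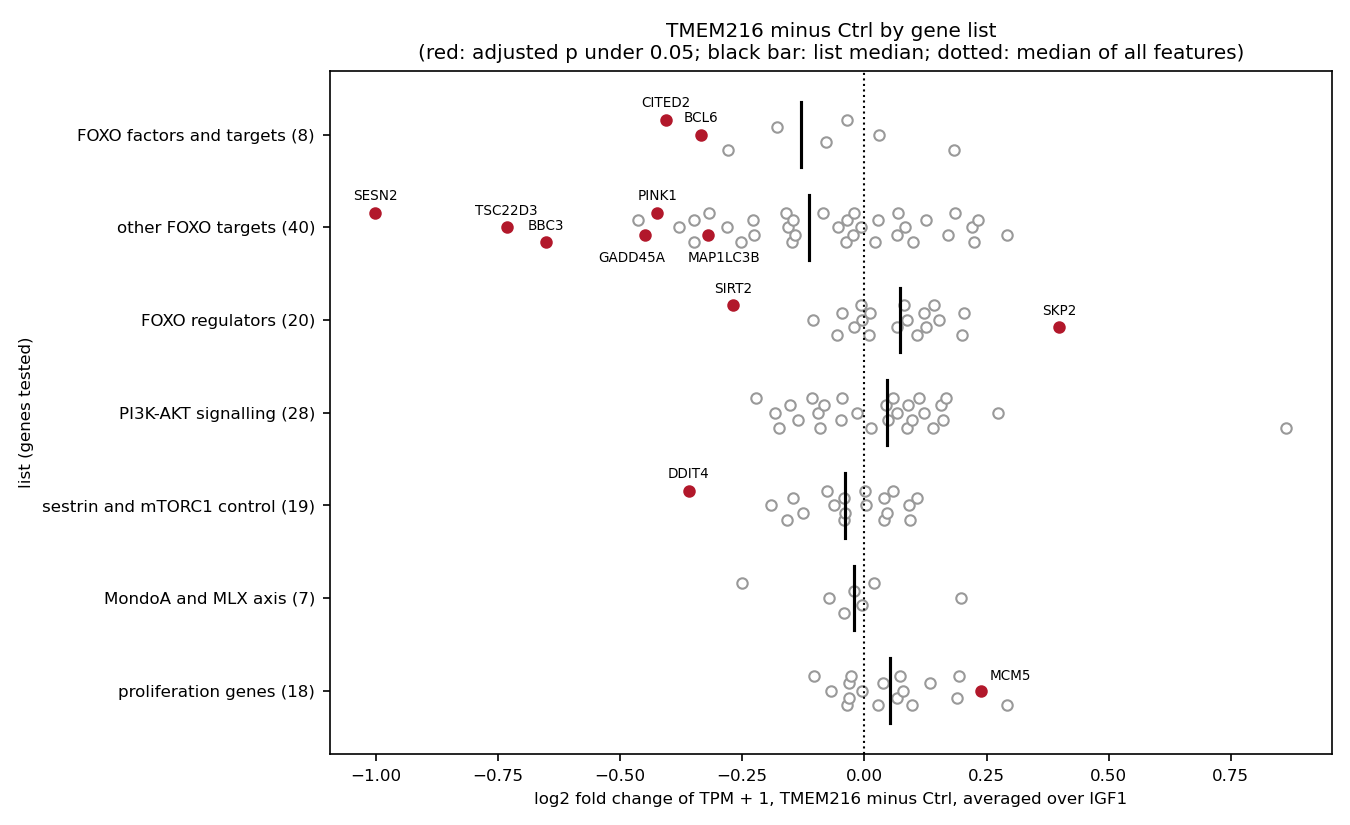
Log2 difference of TPM + 1, TMEM216 minus Ctrl averaged over IGF1 (horizontal axis), for each tested gene of 7 lists (vertical axis, with the number tested). Red points passed at an adjusted p under 0.05 and are named, black bars are list medians and the dotted line is the median of all features. SESN2 lies farthest from 0, at -1.001. No PI3K-AKT gene passed, where 5.22% of all features did.

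For both called members, the genes with the most similar pattern over the 12 libraries were found among 10383 tested genes of at least 5 TPM, by the root mean square difference of log2 values centred on each gene's mean. For CITED2 they were WARS1, KLF4 and SARS1, at 0.07 to 0.08, against a spread of CITED2 itself of 0.27. WARS1 overlaps WDR25 on the opposite strand. For BCL6 they were PICK1, ECM1 and PPARD, at 0.07 to 0.08, against a spread of BCL6 of 0.21. The measure describes these libraries and carries no test.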

How the data were processed

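RNA-seq was made from 12 MDA-231-LM2 libraries, from total RNA with an Illumina TruSeq RNA kit, per the labels' protocols. Per the submitters' processing notes the authors used HISAT2, StringTie and RSEM, without versions; no source used here gives the genome build or strandedness. The authors deposited TPM for 21574 features, 20443 with Ensembl gene identifiers and 1131 assembled (MSTRG) features. TPM holds no read counts, so library depth is unknown and counting error cannot be given.

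From the deposited TPM, log2(TPM + 1) was computed, which understates fold changes of low genes. Features with at least 1 TPM in at least 3 libraries were kept (13071). The 4 groups were fitted together with limma 3.58.1 (R 4.3.3, data.table version 1.17.8) with a mean-variance trend. The 7 comparisons were two-sided, with Benjamini-Hochberg adjustment over all tested features and a threshold of 0.05. The fit was run on simulated data with independent noise for each feature, as a check of the code. That run did not measure the power to find differences as small as those of the members with IGF1. Python 3.11.15 with matplotlib 3.10.9 made the figures.

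Members and lists were chosen with earlier results of these data known. All members are named; of each list, those past the threshold, up to 4 with the smallest p in each comparison, are named, and GADD45A and BBC3 in the averaged comparison go beyond that rule. Likeness neighbours are the 3 nearest features. IGF1R, FOS, PECAM1 and the other FOXO targets with an unadjusted p under 0.05 with IGF1 are named beside counts. Gene overlaps came from GENCODE 29 and promoters from RefSeq; members matched by symbol. Alternatives were no filter, a minimum TPM of 5, a pseudocount of 0.1, quantile and median-of-ratios scaling, no trend, only the 6 libraries compared, a replicate block, leaving out each library, and leaving out 2 libraries together. The sum of FOXO3 and FOXO3B, and the lists and list genes under these alternatives, were added after seeing the data.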

Additional observations from a re-analysis of the deposited data

How the results depend on the processing

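Counts of called features moved most. With IGF1 in TMEM216 cells, where 2 features were called, the count was 7 with a pseudocount of 0.1, 4 with a minimum TPM of 5, and 1 without the filter, under median-of-ratios scaling, with the block or without the 2 libraries. With IGF1 in Ctrl cells (4) it was 0 with a pseudocount of 0.1 or a minimum TPM of 5, 2 under quantile normalization, and 1 without the filter, with 6 libraries or with the replicate block. The interaction (2) gave 1 in each of 6 alternatives. TMEM216 with IGF1 (211) gave 49 with 6 libraries and 140 with the block; without IGF1 (143) it gave 49 with 6 libraries, 77 with the block and 288 without the 2 libraries. Averaged, IGF1 (7) gave 1 with the block and 4 without the 2 libraries, and TMEM216 (682) gave 1061 without them. Leaving out 1 library gave 1 to 6 features for IGF1 in TMEM216 cells, 1 to 5 in Ctrl cells, 84 to 462 for TMEM216 with IGF1, 43 to 273 without it, 1 to 3 for the interaction, 1 to 11 for averaged IGF1 and 392 to 906 for averaged TMEM216. The share of higher calls for TMEM216 without IGF1 was 14% in the fit reported, 32.8% under quantile normalization and 31.2% under median-of-ratios scaling.

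Members called for TMEM216 without IGF1 were 1, BCL6, against 0, with a minimum TPM of 5, median-of-ratios scaling, no trend or without the 2 libraries, and 0 to 1 without 1 library. For averaged TMEM216 they were 0 to 2 without 1 library. Among the listed genes, the averaged PECAM1 call was lost with a pseudocount of 0.1, with the block and without the 2 libraries (limma adjusted p of 0.0552 to 0.0842). The PECAM1 call with IGF1 was lost with 6 libraries, with the block and without the 2 libraries (0.0814 to 0.165). The averaged MCM5 call was lost with the block (0.0686).

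Signs turned only for comparisons in which the member did not pass. Under quantile normalization these were FOXO3 with IGF1 in Ctrl cells (0.011) and averaged (0.047), and the interactions of FOXO1 (-0.057), TXNIP (-0.024) and SESN1 (-0.069). Under median-of-ratios scaling they were the interactions of FOXO1 (-0.051), TXNIP (-0.030) and SESN1 (-0.050) and averaged IGF1 for FOXO3 (0.030) and CITED2 (0.0036). Without Ctrl+IGF1 replicate 3 and TMEM216 replicate 1 they were IGF1 in TMEM216 cells for FOXO3 (-0.0005) and CITED2 (-0.026), TMEM216 with IGF1 for FOXO3 (-0.030), TMEM216 without IGF1 (-0.035) and averaged (-0.013) for SESN1, and the interactions of FOXO1 (-0.11), FOXO4 (-0.0070) and TXNIP (-0.17).
Without 1 library, SESN1 ranged from -0.053 to 0.079 with IGF1 in Ctrl cells, -0.024 to 0.11 in TMEM216 cells, -0.074 to 0.10 for TMEM216 without IGF1, -0.014 to 0.077 with IGF1, -0.014 to 0.074 averaged and -0.058 to 0.12 for the interaction. FOXO3 ranged from -0.0005 to 0.22 with IGF1 in TMEM216 cells, -0.053 to 0.059 for averaged IGF1, -0.030 to 0.16 for TMEM216 with IGF1 and -0.097 to 0.016 averaged. CITED2 ranged from -0.026 to 0.25 with IGF1 in TMEM216 cells and -0.11 to 0.025 averaged, FOXO4 from -0.23 to 0.12 with IGF1 in TMEM216 cells, and the interactions from -0.088 to 0.11 (FOXO1), -0.016 to 0.33 (FOXO4) and -0.058 to 0.21 (TXNIP). The cause was not tested.

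The labels do not say whether replicate numbers pair the samples. Deviations from group means correlated at -0.286 to 0.165 (median 0.016) in 18 same-numbered pairs from different groups. In 36 differently numbered pairs they correlated at -0.274 to 0.278 (median 0.004). Of 12 libraries, 5 correlated best with their own number, out of 3 numbers. These values cannot show whether same-numbered libraries were handled together. With the replicate block, BCL6 (adjusted p = 0.0409) and CITED2 (0.0412) kept their averaged calls, and no member gained one.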
